A study of Mus musculus with 10 samples.

Results

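C1q macrophages are described here in mouse livers that held metastases of colorectal cancer origin. They are tissue macrophages that transcribe C1qa, C1qb and C1qc, the genes of the 3 chains of complement C1q. A cell barcode of the droplet single-cell RNA libraries was kept with at least 300 detected genes and at most 15% mitochondrial UMIs (unique molecular identifiers, the counted RNA molecules). Members were chosen by measured UMIs: a kept barcode was called a C1q macrophage when each C1q gene had at least 2 UMIs, the macrophage growth factor receptor gene Csf1r had at least 1, and the T cell gene Cd3e and the B cell gene Cd79a had 0. The rule chose 1136 of 27707 kept barcodes, of 28039 in all. The 5 libraries fall into 3 groups. Control mice had received a control LV, a lentiviral vector (livers 11 and 25), and IFNa mice an LV for interferon alpha (livers 18 and 23). The combination, liver 22, came from mice given IFNa with a-CTLA-4, a block of the T cell inhibitory receptor CTLA-4, and has 1 library. The labels give no strain, sex, age, dose or time, and do not say whether a library held 1 liver or several, so p-values measure only the spread between these 5 samples. Cells had been freed by collagenase, Dispase II and DNase, and viable cells were sorted as 7AAD-negative without antibodies.

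Macrophages in a liver tumour come from blood monocytes or from Kupffer cells, the resident macrophages of the liver sinusoids, which carry Clec4f, Vsig4, Timd4 and Marco. Type I interferon binds its receptor and acts through a complex that holds STAT2 and IRF9 and binds the interferon-stimulated response element (ISRE) in the promoters of antiviral genes. Interferon gamma acts through the gamma-activated site (GAS) and is a strong inducer of Cxcl9, of the guanylate-binding proteins and of Nos2. Tumour macrophages that express Spp1, Arg1, Trem2 and Fn1 are known for matrix and lipid handling and for restraining T cells, whereas Cxcl9 and Cxcl10 attract T cells that bear CXCR3.

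The promoters of 4 of the genes that were higher in IFNa macrophages are shown because they differ in exact matches to a core of the ISRE. Each is the 250 bases before the transcription start, 5′ to 3′ on the gene's strand, from RefSeq on GRCm38.p6, and capitals mark the ISRE core GAAANNGAA on either strand. Ifit3 had 3 cores, Isg15 had 3 cores that overlap, Ifih1 had 1 and Ifi44 had none in this window. Only exact matches were counted, so an ISRE that departs from this core would be missed.
Ifit3, chr19:34583279-34583528, plus strand: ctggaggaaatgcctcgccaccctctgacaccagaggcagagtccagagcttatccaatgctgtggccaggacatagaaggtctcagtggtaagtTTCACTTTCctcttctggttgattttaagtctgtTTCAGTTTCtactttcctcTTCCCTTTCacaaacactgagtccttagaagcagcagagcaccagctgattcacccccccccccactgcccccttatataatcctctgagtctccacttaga
Isg15, chr4:156200819-156201068, minus strand: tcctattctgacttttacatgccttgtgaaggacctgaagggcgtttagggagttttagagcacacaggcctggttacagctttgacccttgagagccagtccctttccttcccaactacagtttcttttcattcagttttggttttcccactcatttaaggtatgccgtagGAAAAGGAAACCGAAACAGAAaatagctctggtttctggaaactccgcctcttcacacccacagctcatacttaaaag
Ifih1, chr2:62646256-62646505, minus strand: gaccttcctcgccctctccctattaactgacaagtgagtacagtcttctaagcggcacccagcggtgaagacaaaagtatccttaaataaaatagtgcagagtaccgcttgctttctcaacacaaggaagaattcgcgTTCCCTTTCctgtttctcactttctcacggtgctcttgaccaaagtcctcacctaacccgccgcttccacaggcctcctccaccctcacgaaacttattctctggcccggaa
Ifi44, chr3:151749911-151750160, minus strand: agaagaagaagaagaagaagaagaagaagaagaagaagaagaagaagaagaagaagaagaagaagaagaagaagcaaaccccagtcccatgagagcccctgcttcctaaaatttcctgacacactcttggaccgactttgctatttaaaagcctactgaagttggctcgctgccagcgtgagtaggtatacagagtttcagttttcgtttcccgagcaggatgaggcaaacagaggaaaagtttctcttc
Windows of 250 bases before to 50 after the start were searched on both strands for this core and for the GAS, TTCNNNGAA. The ISRE core stood in 8.56% of all 32851 windows and the GAS in 8.30%. Of the 218 genes that rose in IFNa macrophages 167 had a window, and 64 of them (38.3%) held the ISRE core in at least 1 window, beside 9.26% of the 8629 tested genes with a window. The GAS was in 13.2% of the genes that rose, beside 8.34%. Of the 68 genes that fell 41 had a window, and 9.76% of them held the ISRE core and 9.76% the GAS. Of the 44 genes higher in the combination than in IFNa 30 had a window, and 26.7% held the ISRE core and 26.7% the GAS. These are matches of letters, not shown to be binding sites.

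C1q macrophages made up 6.65% of kept barcodes in Control 11 (372 cells, exact 95% binomial interval 6.01% to 7.34%, for counting error only) and 6.03% in Control 25 (51 cells). They made up 3.39% in IFNa 18 (210 cells) and 7.57% in IFNa 23 (419 cells). The combination library had 84 cells, 0.881%, below the other 4 libraries. The rule left out barcodes with at least 2 UMIs of each C1q gene that also held Cd3e or Cd79a. Those with Cd3e numbered 60 in the combination, beside 23 and 2 in Control and 13 and 42 in IFNa. As a share of kept barcodes with Cd3e they were 1.13%, beside 2.31% and 1.32% in Control and 1.27% and 2.79% in IFNa. Those with Cd79a numbered 27 in the combination, 12 and 3 in Control and 9 and 15 in IFNa. Of kept barcodes with Cd79a they were 1.01%, beside 1.26% and 1.71% in Control and 0.532% and 1.49% in IFNa. The part of this limit in the low share was not tested. The mean share was 6.34% ± 0.44 (SD, n = 2) in Control and 5.48% ± 2.96 (SD, n = 2) in IFNa, and the IFNa libraries lay on both sides of the Control libraries (exact permutation test, two-sided p = 1; 2 libraries against 2 cannot give less than 0.333). Without IFNa 18 the difference changed sign, from -0.859 to 1.23 percentage points. Among barcodes with Csf1r Control livers had 14.7% and 14.1%, IFNa livers 9.77% and 22.5%, and the combination 7.85%. Monocytes, taken by a rule of their own (Csf1r and Ccr2 detected, at least 5 Lyz2 UMIs, and no C1q, Flt3, Cd3e or Cd79a UMI), gave 30.1 and 27.9 C1q macrophages per 100 monocytes for Control, against 18.5 and 60.8 for IFNa and 16.5 for the combination. A share of barcodes falls when other cells are added as well as when macrophages are fewer, and these cannot be told apart here.

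The cells carried their label's markers: Adgre1, the gene of F4/80, was detected in 60.7% to 68.5% of them, and Fcgr1, the high-affinity IgG receptor gene, in 86.3% to 98.8%. Ccr2, the receptor that brings monocytes into tissue, was detected in 84.5% to 92.2%. Kupffer genes were rare. Marco was in at most 1.61% of C1q macrophages of any library and Timd4, a receptor for dying cells, in at most 2.38%. At least 3 of Clec4f, Vsig4, Timd4, Cd5l and Marco were found in 4 and 0 Control cells, 6 and 5 IFNa cells and 0 combination cells. Among all kept barcodes of the same 5 libraries 5, 0, 11, 7 and 9 had at least 3 of these genes, so few cells of Kupffer type were captured by this measure. The cells thus carried macrophage genes together with Ccr2, and how far Adgre1 and Fcgr1 part them from monocytes is not shown here. Cells with the defining genes of liver-resident macrophages were a small part of them. Barcodes whose lowest C1q gene had 1 UMI, just outside the rule, numbered 54, 7, 38, 46 and 12, with Adgre1 in 36.8% to 71.4%. Those whose lowest had 2, just inside, numbered 34, 2, 19, 30 and 7, with Adgre1 in 42.9% to 56.7%.

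The libraries held 10464216 to 69856071 UMIs, and C1q macrophages contributed 677653 (Control 25) to 6018396 (IFNa 23) with a median of 11814 to 13374 UMIs a cell. No C1q macrophage had a T cell receptor contig, while 6505 kept barcodes did, and no macrophage barcode was shared among the 10 pairs of libraries. The rule's limit of 0 Cd3e UMIs leaves out T cell barcodes beforehand, so the absence of contigs is partly set by the rule. Doublet scores were among the highest in 33 of the 1136 cells. Control 11 stood apart: 11 neutrophil transcripts made up 0.291% of its macrophage UMIs, beside 0.00907% to 0.0149% in the other 4 libraries, and 12 epithelial transcripts 0.0292%, beside 0.00192% to 0.00744%. Cells with over 10 S100a8 or Alb UMIs or any UMI of a set of lymphocyte and epithelial markers, among them Cd3d, Cd3g, Ms4a1, Ncr1 and Epcam, numbered 69, and results are given without them where their removal ended the call of a named gene. The median mitochondrial share was 1.20% and 1.36% in Control and 0.694% and 0.624% in IFNa macrophages, which did not overlap (exact permutation test, two-sided p = 0.333, the least possible), and its part in the results was not tested.

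Cells with Arg1 or Spp1 were the largest of the 3 fractions in Control and IFNa livers. Arg1 (chr10:24915221-24927484, minus strand, GRCm38) encodes arginase 1, which consumes arginine, and Spp1 (chr5:104435118-104441050, plus strand) encodes the matrix protein osteopontin. At least 1 UMI of either gene was found in 51.3% (191 of 372 cells) and 64.7% (33 of 51) of Control macrophages, in 53.8% and 57.5% of IFNa macrophages and in 19.0% (16 of 84, exact 95% interval 11.3% to 29.1%) of the combination. The combination lay below the 4 other libraries, and Control and IFNa overlapped (58.0% ± 9.45 against 55.7% ± 2.62, SD, n = 2 each; exact permutation test, two-sided p = 1). Without Control 25 the IFNa difference changed from -2.36 to 4.32 percentage points. Both genes were in the same cell in 19.4% and 41.2% of Control, 18.1% and 20.5% of IFNa and 3.57% of combination macrophages, where the product of the single shares would be 12.1%, 28.0%, 12.9%, 15.2% and 1.25%. Monocytes carried Arg1 or Spp1 less often, in 15.4%, 18.6%, 15.9%, 34.0% and 7.09% of cells of the same libraries. T cells with at least 2 Cd3e UMIs, which should lack both, had 1.5% to 6.96% at a median of 5958 to 7699 UMIs.

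The Cxcl9 fraction ran the other way. Cxcl9 (chr5:92321347-92328079, minus strand, GRCm38) encodes a CXCR3 chemokine and was detected in 5.91% (22 of 372) and 5.88% (3 of 51) of Control macrophages. IFNa 18 had 9.52% (20 of 210), IFNa 23 had 27.2% (114 of 419) and the combination 76.2% (64 of 84, exact 95% interval 65.7% to 84.8%). All 3 libraries with IFNa were above both Control libraries (mean of IFNa 18.4% ± 12.5 against 5.90% ± 0.0224 in Control, SD, n = 2 each; exact permutation test, two-sided p = 0.333, the least that 2 against 2 can give), and the 2 IFNa libraries lay far apart. Without IFNa 23 the difference was 3.63 percentage points, and without IFNa 18 it was 21.3. Monocytes of the same libraries had Cxcl9 in 1.38%, 4.37%, 3.16%, 11.3% and 43.7% of cells, in each library less than C1q macrophages. T cells, which should lack it, had 0.255%, 0.752%, 1.39%, 2.82% and 6.79%, below both myeloid types in every library. With every cell thinned to 3000 UMIs the mean Cxcl9 share was 4.16% in Control and 11.6% in IFNa, beside 57.8% in the combination. IFNa 18 (4.31%) then lay between Control 11 (2.45%) and Control 25 (5.88%), and IFNa 23 had 19.0% (exact permutation test, two-sided p = 0.667). So at equal depth the IFNa and Control libraries overlapped. The thinned Arg1 or Spp1 share was 46.5% (mean of Control), 40.7% (mean of IFNa) and 8.43% (combination). Thinning left out 4, 4 and 1 cells of Control, IFNa and the combination as shallower.

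Cells with Vsig4 or Clec4f, Kupffer cell genes for a complement receptor and a lectin, were few in each library. They were 2.96% and 3.92% of Control, 7.62% and 2.63% of IFNa and 1.19% (1 of 84, exact 95% interval 0.0301% to 6.46%) of combination macrophages. The IFNa libraries lay on both sides of Control (exact permutation test, two-sided p = 1), and without IFNa 18 the difference turned from 1.68 to -0.814 percentage points. T cells had either gene in 0% to 0.348% of cells, so the fraction stood above that background except in the combination, where 1 cell decided it. Most barcodes with these genes lay outside the C1q rule: of 27, 3, 62, 32 and 29 kept barcodes with Vsig4 or Clec4f, 11, 2, 16, 11 and 1 were C1q macrophages.

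**Figure D1:**
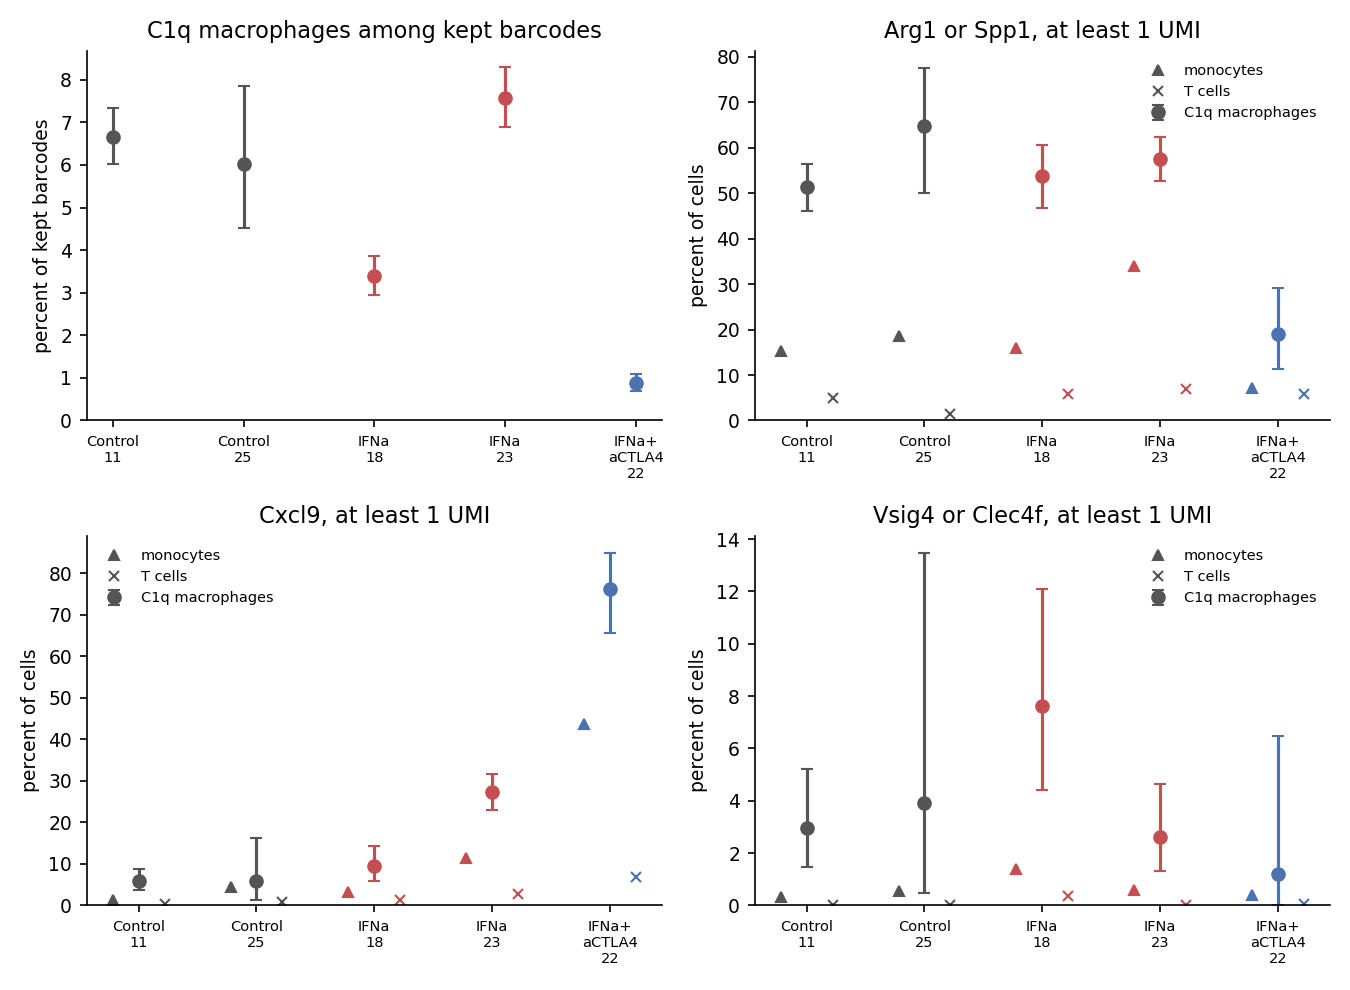
Share of C1q macrophages among kept barcodes, and shares of macrophages with Arg1 or Spp1, with Cxcl9 and with Vsig4 or Clec4f, in percent, for each of the 5 libraries. Bars on points are exact 95% binomial intervals, triangles are monocytes and crosses T cells. The combination has the lowest Arg1 or Spp1 share (19.0%) and the highest Cxcl9 share (76.2%).

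The Arg1 or Spp1 and the Cxcl9 fractions overlapped about as often as their sizes would give. Cells with both were 2.96%, 1.96%, 5.71%, 14.8% and 14.3% of macrophages in Control 11, Control 25, IFNa 18, IFNa 23 and the combination, and the products of the 2 shares were 3.04%, 3.81%, 5.12%, 15.6% and 14.5%. Cells with and without Cxcl9 were compared within a library on summed UMIs as log2 ratios of CPM (UMIs scaled to a common library total) plus 5, as a description with no test. Control 25 was left out because 3 cells were positive. In all 4 libraries Cxcl9 cells had more Cxcl10 (median log2 ratio 1.92), Iigp1 (1.49), Cd40 (1.06) and C3 (0.97). Smaller ratios above 0 in all 4 were those of Cfb (0.53), Cd274 (0.44), Chil3 (0.44), Slfn4 (0.35), Il1rn (0.32) and Ly6c2 (0.23). Cxcl9 cells had less Spp1 (-2.80), Mrc1 (-1.80), Adgre1 (-0.68), Siglec1 (-0.65) and Hmox1 (-0.60) in all 4. Mrc1 encodes the mannose receptor and Hmox1 heme oxygenase 1. Arg1 was lower in 3 of the 4 and higher in the combination, so Arg1 and Spp1 did not part alike. Cells with Arg1 or Spp1 had, in all 5 libraries, more Fn1 (median log2 ratio 1.89), Vegfa (1.45), Il1rn (1.29), Thbs1 (1.01) and Trem2 (0.67) than the other macrophages. The Arg1 or Spp1 cells also had more Cd274 (0.44), Cd86 (0.28) and Il1b (0.26), and less Gbp2b (-1.05), in all 5. Il1rn and Cd274 were thus higher with Cxcl9 as well as with Arg1 or Spp1.

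**Figure D2:**
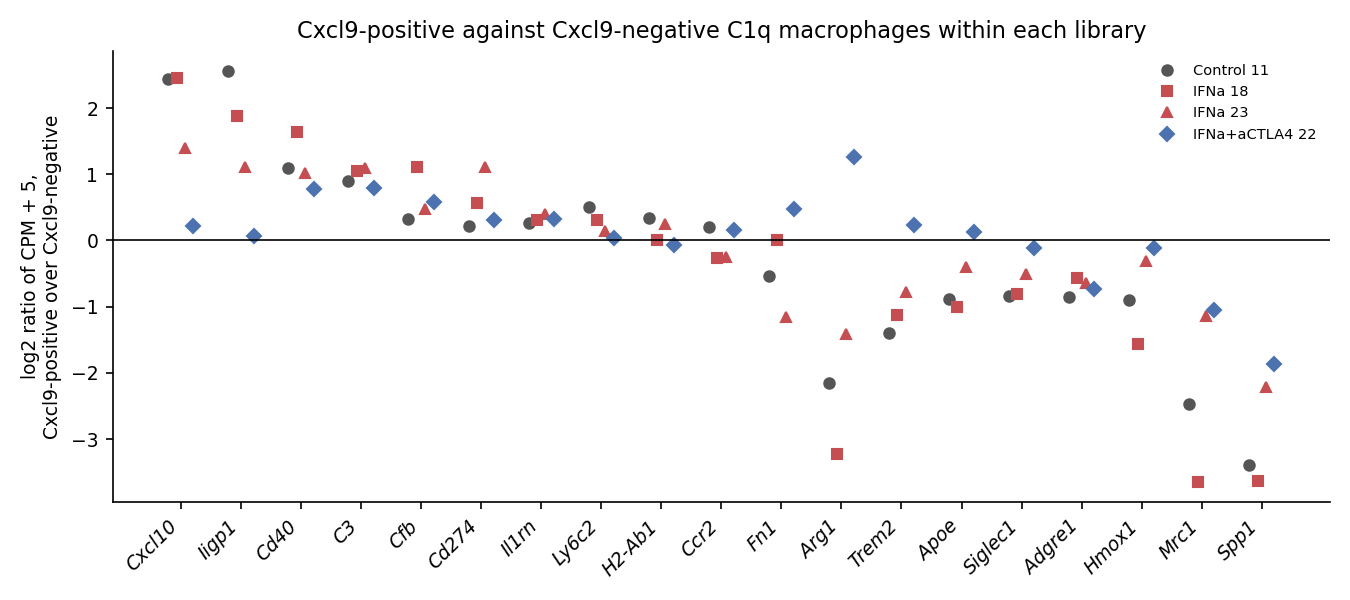
Log2 ratio of summed CPM plus 5 in C1q macrophages with Cxcl9 over those without, for selected genes in Control 11, IFNa 18, IFNa 23 and the combination; a ratio above 0 is higher in Cxcl9 cells. Cxcl10 lies above 0 and Spp1 and Mrc1 below 0 in each of the 4 libraries.

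For tests across genes, UMIs of C1q macrophages were summed in each library and fitted with edgeR's quasi-likelihood test over 11016 genes. Values below are CPM on edgeR's normalised scale in the order Control 11, Control 25, IFNa 18, IFNa 23 and combination, and a change is a log2 fold change with its standard error. IFNa macrophages had 218 genes higher than Control (1.98% of those tested) and 68 lower (0.617%) at an adjusted p under 0.05, and the median of all genes was 0.0019. Of 43 tested genes of a type I interferon list 39 rose and none fell, with a median of 1.60. Ifi44, an antiviral gene, read 7.07, 6.01, 179, 158 and 204 CPM, so every library with IFNa lay above both Controls, and it rose 24.3-fold in IFNa (4.60 ± 0.21, edgeR adjusted p = 0.000107). Ifit3, which binds viral RNA complexes, read 45.3, 43.6, 346, 360 and 410 (2.98 ± 0.17, edgeR adjusted p = 0.000262), and Isg15, a ubiquitin-like modifier, 304, 329, 1465, 1473 and 2406 (2.22 ± 0.16, edgeR adjusted p = 0.00048). Both are among the genes whose promoters are shown above, and in both the replicates of a group were closer than the groups. Irf7, a regulator through which cells amplify the interferon signal, read 209, 200, 1191, 1172 and 1583 (2.53 ± 0.16, edgeR adjusted p = 0.000368). Ifih1, the cytosolic RNA sensor MDA5, rose by 1.51 ± 0.16 and Siglec1, a sialic acid receptor of macrophages, by 1.94 ± 0.21 (edgeR adjusted p = 0.00234 and 0.00266).

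The 10 largest rises in IFNa against Control, by the naming rule, were Ifi44, Slfn4 (3.92 ± 0.29), Iigp1 (3.60 ± 0.32), Ifit3b (3.56 ± 0.21), Gm4951 (3.47 ± 0.25), Tnfsf8 (3.22 ± 0.26), Ifit3, Ly6c2 (2.94 ± 0.18), Gm21860 (2.87 ± 0.40) and Oasl1 (2.84 ± 0.26). Their edgeR adjusted p ran from 0.000107 to 0.00834. Gm21860 lies on chromosome Y, the labels give no sex, and the part of sex in its call was not tested. Ly6c2, the surface antigen that marks inflammatory monocytes, was detected in 42.7% and 33.3% of Control macrophages, 80.5% and 82.6% of IFNa macrophages and 97.6% of the combination. Its level read 263, 277, 2222, 1902 and 3293 CPM, so the rise was in cells positive as well as in level. Tnfsf8, a ligand of the tumour necrosis factor family, read 5.93, 3.01, 50.9, 51.6 and 11.9 CPM, and the combination lay below both IFNa libraries. Gm21860 did not pass without Control 11 (edgeR adjusted p = 0.11). Ifit3 and Ifit3b, Iigp1 and Gm4951, and Ly6c2 and its neighbours are close copies of each other, and how far their reads were split is uncertain.

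**Figure D3:**
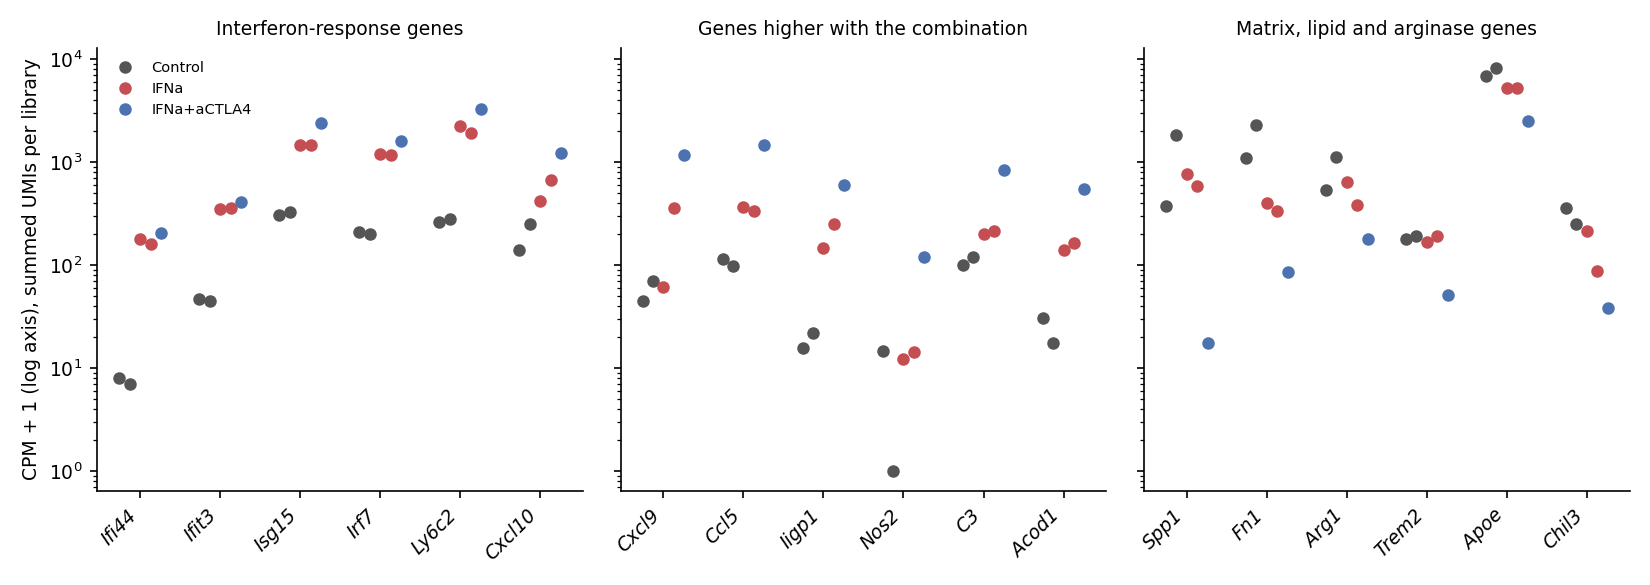
CPM plus 1 on a log axis of 18 genes in C1q macrophages, 1 point a library coloured by group. Interferon genes such as Ifi44 are higher in all 3 libraries with IFNa, Cxcl9 and Nos2 reach their highest value in the combination, and Spp1 and Fn1 their lowest.

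Antigen presentation genes moved on the class I side. Of 21 MHC class I and peptide-loading genes 11 rose and none fell in IFNa macrophages (median 0.87), while of 11 MHC class II genes none passed (median -0.30). H2-K1, a classical class I chain, read 1408, 1521, 2748, 3443 and 4363 CPM (1.08 ± 0.18, edgeR adjusted p = 0.0172), and H2-Q7, a non-classical chain, 107, 123, 451, 578 and 811 (2.18 ± 0.19, edgeR adjusted p = 0.00118). H2-D1 rose by 0.88 ± 0.17 and H2-T23 by 1.12 ± 0.19. H2-Ab1, a class II chain, read 3860, 3958, 2810, 3916 and 6681 CPM and did not pass (-0.22 ± 0.20, edgeR adjusted p = 0.742). Without Control 11 or without IFNa 23, H2-K1 and H2-D1 did not pass (edgeR adjusted p = 0.054 to 0.25), nor did H2-D1 without IFNa 18 (0.069) or H2-T23 without IFNa 23 (0.092).

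Of 16 interferon-gamma-inducible GTPases, which attack the vacuoles of intracellular microbes, 7 rose and none fell (median 0.93). Iigp1 read 14.7, 21.0, 146, 246 and 601 CPM, Gbp6 rose by 2.45 ± 0.34, Igtp by 1.29 ± 0.25 and Irgm1 by 1.19 ± 0.19. Of 19 sensors of foreign nucleic acids 6 rose (median 0.74), with Zbp1 at 1.52 ± 0.17, Ifi205 at 2.17 ± 0.34 and Mndal at 0.87 ± 0.17. Socs1, a feedback inhibitor of interferon signalling, rose by 1.37 ± 0.27 and was the 1 gene called of 8 interferon and interferon receptor genes tested. The 18 type I interferon genes themselves had 1 UMI in all C1q macrophages, in Control 11, and 3 to 11 UMIs among all kept barcodes of a library. The calls of Gbp6, Igtp, Irgm1, Socs1 and Mndal were lost without Control 11 (edgeR adjusted p = 0.051 to 0.23), those of Igtp, Socs1 and Mndal without IFNa 23 (0.080 to 0.096), that of Mndal without IFNa 18 (0.13) and that of Socs1 without the combination (0.057).

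Among secreted signals, 5 of 16 chemokines rose and 1, Ccl9, fell in IFNa macrophages (median 0.41). Ccl5, a chemokine that attracts T cells, read 114, 97.7, 367, 333 and 1446 CPM (1.70 ± 0.17, edgeR adjusted p = 0.00222), and Cxcl10 138, 251, 417, 666 and 1218 (1.53 ± 0.31, edgeR adjusted p = 0.0426). The monocyte attractants Ccl2 and Ccl12 rose by 0.94 ± 0.17 and 2.10 ± 0.33. Cxcl9 itself read 44.2, 69.1, 60.3, 353 and 1153 CPM: IFNa 18 lay between the Control libraries, and the IFNa change did not pass (1.99 ± 0.69, edgeR adjusted p = 0.24), though it did without IFNa 18 (2.71, edgeR adjusted p = 4.2e-06). Of 18 cytokines 2 rose, Il18bp (1.67 ± 0.27), the antagonist of interleukin 18, and Tnfsf13b (1.53 ± 0.29), a survival factor of B cells. Of 14 checkpoint and co-stimulatory ligands 2 rose, Cd40 (1.21 ± 0.20) and Lgals9 (0.91 ± 0.15). Cd274, the gene of PD-L1, read 112, 176, 185, 196 and 564 CPM and did not pass in IFNa (0.46 ± 0.22, edgeR adjusted p = 0.432), but did without Control 25 (0.76, edgeR adjusted p = 0.032). Cxcl10, Ccl12, Il18bp, Tnfsf13b and Cd40 did not pass without Control 11 (edgeR adjusted p = 0.070 to 0.18). Neither did Tnfsf13b, Cd40 and Lgals9 without IFNa 23 (0.053 to 0.27), Ccl2 and Lgals9 without IFNa 18 (0.11 and 0.077), or Cxcl10 without the combination (0.063), with DESeq2 (0.12) or with edgeR on relative log expression (RLE) factors (0.055).

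Of 15 complement genes 2 rose and 1 fell. Cfb, factor B of the alternative pathway, read 110, 144, 437, 587 and 1466 CPM (2.04 ± 0.22, edgeR adjusted p = 0.00251), and C3, the protein it acts on, 99.6, 117, 200, 214 and 831 (0.96 ± 0.17, edgeR adjusted p = 0.0241). Both were higher in all 3 libraries with IFNa than in either Control library. Of 12 enzymes of arginine, tryptophan and itaconate 2 rose: Acod1, which makes itaconate, read 29.4, 16.5, 140, 163 and 545 CPM (2.54 ± 0.23, edgeR adjusted p = 0.00135), and Ass1, which regenerates arginine, rose by 1.16 ± 0.21. C3 did not pass without Control 11, IFNa 18 or IFNa 23 (edgeR adjusted p = 0.054 to 0.103), nor with C1q genes at 1 UMI or more (0.077).

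Genes of tumour and tissue macrophages were set beside all tested genes, of which 1.98% rose and 0.617% fell in IFNa against Control. Of 22 lipid-associated and matrix genes 1 fell and none rose (median -0.20), and of 16 alternative activation genes none passed (median -0.05). Lists this short cannot be told apart from the shares of all genes by such counts. The gene that fell was Fn1, fibronectin, which read 1093, 2287, 402, 335 and 84.4 CPM (-2.19 ± 0.32, edgeR adjusted p = 0.0104). Arg1 read 527, 1111, 636, 379 and 179 CPM and did not pass (-0.68 ± 0.35, edgeR adjusted p = 0.482). Spp1 read 373, 1841, 761, 585 and 16.5 CPM, with both IFNa libraries between the 2 Controls (-0.70 ± 0.57, edgeR adjusted p = 0.702). Its direction depended on the Control library kept: it was 0.85 without Control 25 (edgeR adjusted p = 0.045) and -1.48 without Control 11 (0.0083). Trem2 read 177, 191, 165, 192 and 50.4 CPM, and the IFNa and Control libraries overlapped (-0.03 ± 0.16, edgeR adjusted p = 0.983; above 0 under 5 of the alternative settings, at most 0.069). Mrc1, at 74.7, 174, 50.5, 50.3 and 22 CPM, did not pass (-1.16 ± 0.33, edgeR adjusted p = 0.148), but did in 4 of 14 alternative settings, among them without Control 11 (-1.81, 0.0033) and with DESeq2 (-1.29, 0.024).

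Among the 10 largest falls in IFNa, by the same rule, were S100a8 (-6.23 ± 1.21), Saa3 (-2.63 ± 0.47), Dip2c (-2.60 ± 0.33), Fn1, Uck2 (-1.80 ± 0.22), Plxdc2 (-1.54 ± 0.29), Nrg1 (-1.50 ± 0.19) and Trf (-1.43 ± 0.22), with edgeR adjusted p from 0.00453 to 0.0338. Trf, transferrin, carries iron and is the 1 called gene of 5 hepatocyte transcripts tested, and Nrg1 is a growth factor that binds ERBB receptors. S100a8, a neutrophil calprotectin subunit, read 891, 30.1, 6.13, 6.59 and 1.83 CPM. Of 11 neutrophil transcripts 4 fell (median -4.44), and 2 of these, Camp and Ngp, stood at 296 and 475 CPM in Control 11, at 0 in Control 25 and at 0.722 or less in IFNa. These levels moved with Control 11, the library with the most neutrophil transcripts. The barcodes of other lineages are chosen in part by S100a8, so its own loss without them (-2.25, edgeR adjusted p = 0.19) follows from the choice. Camp and Ngp were not used for it: in Control 11 they went from 1548 and 2487 UMIs to 3 and 1 without those barcodes, and were then too low to be tested. S100a8 did not pass without the combination (0.052), and Camp and Ngp did not with DESeq2 (0.42 and 0.44). Saa3 and Plxdc2 did not pass without Control 11 (edgeR adjusted p = 0.28 and 0.19), nor Saa3 with DESeq2 (0.15).

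Kupffer cell genes were likewise set beside the 1.98% of all tested genes that rose in IFNa. Of 17 tested 2 rose, Nr1h3 (1.19 ± 0.18), the lipid-sensing nuclear receptor LXR alpha, and Il18bp, and the list had a median of 1.19 with 14 of 17 above 0. Clec4f read 3.06, 1.5, 106, 12.9 and 0 CPM and Cd5l 8.79, 27.1, 185, 16.6 and 0.917. Both owed their high values to IFNa 18, and neither passed (edgeR adjusted p = 0.106 and 0.274), although both did without IFNa 23 (6.7e-11 and 9.5e-09). Of 16 scavenger receptors none passed. Of 20 lysosomal genes 1 rose, Grn (0.77 ± 0.16, edgeR adjusted p = 0.048), which was lost without any 1 of 4 libraries (Control 25, IFNa 18, IFNa 23 and the combination, 0.055 to 0.22), without barcodes of other lineages (0.057), with C1q genes at 1 UMI or more (0.057) and with RLE factors (0.053). Of 21 macrophage lineage genes 3 rose, with Ms4a7, a membrane protein of tissue macrophages, at 168, 171, 490, 627 and 259 CPM (1.72 ± 0.18, edgeR adjusted p = 0.00251), and of 15 genes of monocyte origin 2 rose, Ly6c2 and Ms4a4c (1.71 ± 0.25), and 2 fell, Fn1 and Vcan (-1.35 ± 0.20). Of 14 genes of cholesterol and lipid efflux 1 rose, Nr1h3, and 1, Scd2, fell (-0.85 ± 0.17). No gene passed among 17 of the cell cycle, 12 of iron and heme handling and 12 of hypoxia and glycolysis, and 1 of 18 dissociation stress genes, Egr1, fell (-0.94 ± 0.18). Nr1h3, Il18bp, Vcan and Scd2 did not pass without Control 11 (edgeR adjusted p = 0.064 to 0.11), nor Vcan, Scd2 and Egr1 without IFNa 23 (0.063 to 0.18), Scd2 and Egr1 without IFNa 18 (0.105 and 0.074) or Scd2 with DESeq2 (0.22) or without barcodes of other lineages (0.053).

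Genes on the lists of other cell types were also called in IFNa against Control. Of 7 endothelial transcripts 2 rose, Kdr (2.92 ± 0.35), a receptor of vascular endothelial growth factor, at 2.87, 1.5, 18, 22.3 and 21.1 CPM, and Dnase1l3 (2.29 ± 0.41), an extracellular nuclease, at 3.06, 4.51, 10.8, 19.9 and 87.1 CPM. All 13 endothelial transcripts together made up 0.0788%, 0.0983%, 0.0829%, 0.0767% and 0.0727% of macrophage UMIs in the same order, and 2, 7, 2, 1 and 4 of them were at 0. The 14 hepatocyte transcripts made up 0.0568%, 0.0522%, 0.0386%, 0.0224% and 0.0309%, with 4, 7, 1, 2 and 6 at 0. Of 10 T and NK cell transcripts Gzmb, granzyme B, was called higher (2.84 ± 0.53, edgeR adjusted p = 0.0283) on 11, 0, 30, 93 and 0 UMIs, and was not without barcodes of other lineages (2.01, edgeR adjusted p = 0.61) or without doublets (0.19), Control 11 (0.073) or IFNa 23 (0.32). Dnase1l3 did not pass without Control 11 (edgeR adjusted p = 0.31) or IFNa 23 (0.059), and Kdr passed in all 13 alternative settings that tested it. Of 11 dendritic cell transcripts 1 rose, Bst2, which is also an interferon-response gene. The part of other cells in these calls was not tested.

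**Figure D4:**
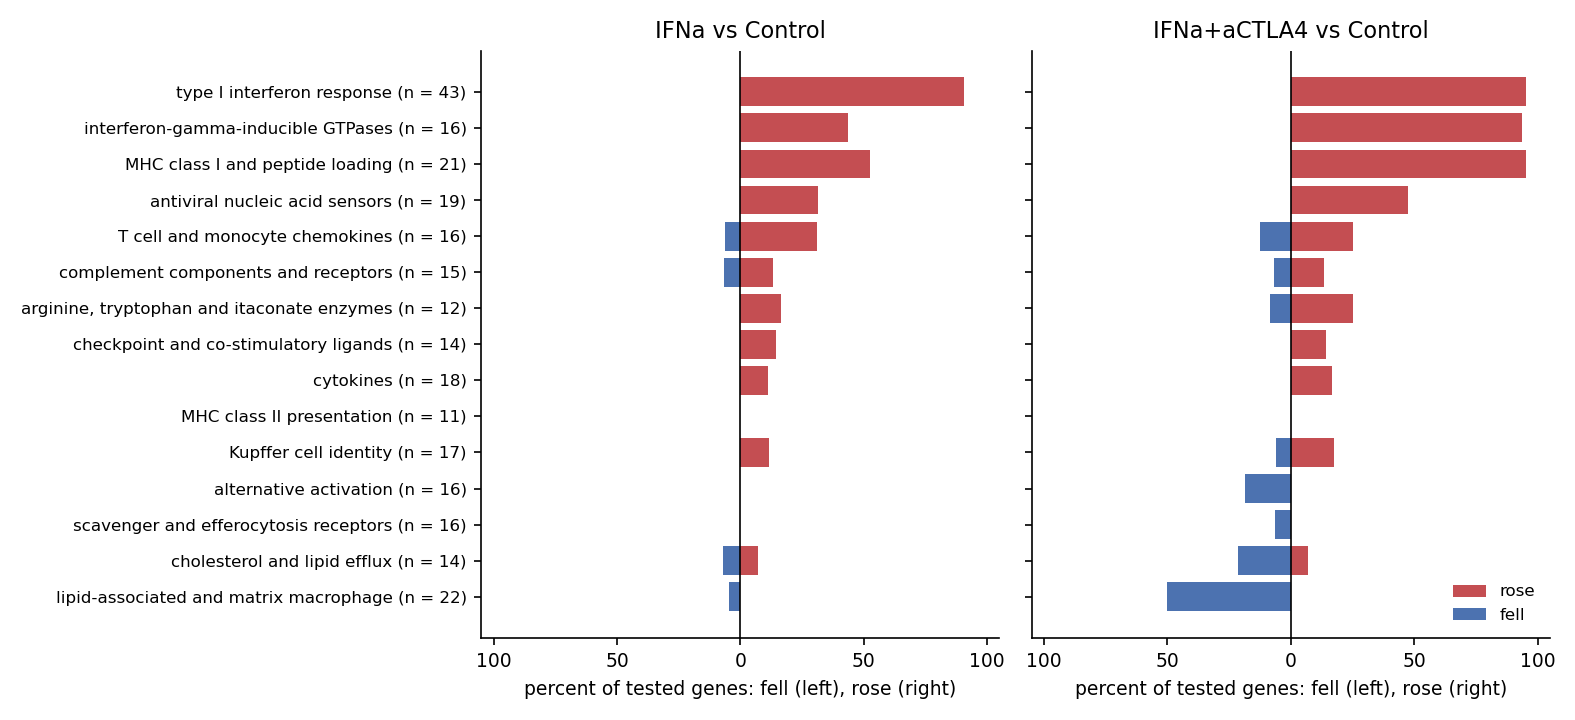
Percent of the tested genes of 15 lists that rose (right of 0) or fell (left of 0) in C1q macrophages, for IFNa against Control and for the combination against Control, with edgeR adjusted p under 0.05. The type I interferon list has 39 of 43 genes up in IFNa, and the lipid-associated and matrix list has 11 of 22 down in the combination.

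In the combination most type I interferon genes rose against Control, and 11 of 22 lipid-associated and matrix genes and 3 of 16 alternative activation genes fell. Against Control 365 genes were higher (3.31% of those tested) and 128 lower (1.16%), with a median of all genes of -0.03. These calls assume that the 1 combination library varies as the other groups do, and the comparison shares its Control libraries with that of IFNa. Of 43 type I interferon genes 41 rose (median 1.77), of 16 GTPases 15 rose (median 2.30) and of 21 class I genes 20 rose (median 1.58), with none falling in these lists. Of 11 class II genes none passed and all 11 were above 0 (median 0.50). Iigp1 rose by 5.21 ± 0.35, Ly6i by 5.20 ± 0.21, Ifi44 by 4.88 ± 0.24 and Dnase1l3, the nuclease gene of the endothelial list, by 4.72 ± 0.43. F830016B08Rik, which read 0.573, 1.5, 8.66, 18.3 and 129 CPM, rose by 7.48 ± 0.56 from a near-absent level. Their edgeR adjusted p ran from 3.24e-05 to 0.000696. Gbp2 rose by 2.54 ± 0.41 and B2m, the light chain of class I, by 1.02 ± 0.19.

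Cxcl9 was 21.8-fold higher in the combination than in Control (4.45 ± 0.78, edgeR adjusted p = 0.0155; 0.066 without Control 11), Ccl5 13.4-fold (3.75 ± 0.20, edgeR adjusted p = 0.000118) and Cxcl10 6.48-fold (2.70 ± 0.36, edgeR adjusted p = 0.00452). Of 16 chemokines 4 rose and 2, Ccl7 and Ccl9, fell. Of 18 cytokines 3 rose: Il18bp (3.14 ± 0.31), Il27 (2.21 ± 0.37), a subunit of interleukin 27, and Il15 (1.16 ± 0.26), which sustains CD8 T and NK cells. Of 14 checkpoint and co-stimulatory ligands Cd274 (2.02 ± 0.26, edgeR adjusted p = 0.00343) and Cd40 (2.30 ± 0.24) rose. Cd274 was detected in 89.3% of combination macrophages, beside 52.2% and 49.0% in Control and 66.2% and 66.3% in IFNa. Il15 did not pass without Control 11 (edgeR adjusted p = 0.16) or with C1q genes at 3 UMIs or more (0.054), and Il15 and Il27 did not with DESeq2 (0.33 and 0.066).

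Of 22 lipid-associated and matrix genes 11 fell in the combination against Control and none rose (median -1.33). Spp1 fell by 6.04 ± 1.07 (edgeR adjusted p = 0.016) and Mmp12, macrophage elastase, which read 162, 57.1, 156, 101 and 5.5 CPM, by 4.45 ± 0.83 (edgeR adjusted p = 0.0207). Fn1 fell by 4.32 ± 0.49, Trem2, a lipid receptor, by 1.86 ± 0.24, Thbs1, thrombospondin 1, by 2.00 ± 0.44 and Lpl, lipoprotein lipase, by 1.14 ± 0.24. Apoe, the lipid carrier apolipoprotein E, read 6867, 8163, 5205, 5224 and 2509 CPM and fell by 1.58 ± 0.22 (edgeR adjusted p = 0.00581). For these 7 genes the combination library had the lowest value of the 5, except Thbs1, which read 217 CPM in IFNa 23 and 243 in the combination. Of 16 alternative activation genes 3 fell (median -1.31): Chil3 (-3.04 ± 0.58), Mgl2 (-2.49 ± 0.40) and Arg1 (-2.18 ± 0.49, edgeR adjusted p = 0.0449). Mrc1 missed the threshold (-2.35 ± 0.55, edgeR adjusted p = 0.0509) and passed in 11 of 13 alternative settings, DESeq2 among them (0.00040). Arg1 missed it with DESeq2 (0.09) and RLE factors (0.053), as did Thbs1 and Lpl with DESeq2 (0.081 and 0.11).

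Other changes of the combination against Control concerned complement and metabolism. Cfb rose by 3.56 ± 0.25 and C3 by 2.96 ± 0.20. Acod1 rose 20.9-fold (4.39 ± 0.26, edgeR adjusted p = 0.000146), Ass1 by 2.12 ± 0.25 and Nos2, inducible nitric oxide synthase, which read 13.6, 0, 11.2, 13.3 and 119 CPM, by 3.44 ± 0.51 (edgeR adjusted p = 0.00728; 0.53 with DESeq2). By edgeR the genes of the enzymes that make nitric oxide and itaconate were higher and Arg1, which competes for arginine, was lower. Neither Nos2 nor Arg1 passed with DESeq2 (adjusted p = 0.53 and 0.09). Within libraries Nos2 was higher in cells with Arg1 or Spp1 than in the others in 4 of 5 (median log2 ratio 1.72, lowest 0). Of 17 Kupffer genes 3 rose, Il18bp, Clec2d and Nr1h3 (1.23 ± 0.22), and Id3 fell (-1.44 ± 0.32). Of 16 scavenger receptors 1 fell, Lrp1 (-1.31 ± 0.24), and Cx3cr1, the fractalkine receptor, fell by 1.25 ± 0.24. Dip2c (-4.79 ± 0.74), St6gal1 (-3.90 ± 0.66) and Egln3 (-2.35 ± 0.48), an oxygen sensor, also fell. Of 19 nucleic acid sensors 9 rose, among them Samhd1 (1.28 ± 0.18). Igkc, an antibody light chain gene, was called higher (3.21 ± 0.63), and was detected in 32.1% of macrophages, 35.1% of T cells and 36.8% of monocytes of that library, so its share in macrophages was not above that in T cells, which should lack it. Of the other-cell lists, Kdr (2.96 ± 0.46) and Dnase1l3 were the 2 called of 7 endothelial transcripts and Trf (-2.36 ± 0.32) the 1 of 5 hepatocyte transcripts. Bst2 and Fscn1 (4.69 ± 0.81, edgeR adjusted p = 0.0147), an actin-bundling protein of mature dendritic cells, rose among 11 dendritic cell transcripts, Fscn1 on 7, 9, 66, 67 and 88 UMIs. Fscn1 did not pass without Control 11 (0.067) or with DESeq2 (0.36). Nr1h3, Id3 and Egln3 did not pass without Control 11 (edgeR adjusted p = 0.053 to 0.079).

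The 1 combination library was also set against the 2 IFNa libraries. This comparison cannot tell the antibody apart from other traits of the combination library. Higher in it were 44 genes (0.399% of those tested) and lower 14 (0.127%). Of 43 type I interferon genes 1 rose (list median 0.29), whereas of 16 GTPases 4 rose (median 1.34): Gbp5 (2.22 ± 0.31), Gbp4 (1.70 ± 0.23), Gbp8 (1.57 ± 0.21) and Gbp7 (1.35 ± 0.21). The largest rises were Nos2 (3.25 ± 0.47), F830016B08Rik (3.17 ± 0.35), Ly6i (3.00 ± 0.19), Upp1 (2.49 ± 0.37), a uridine phosphorylase, and Dnase1l3 (2.43 ± 0.33), with edgeR adjusted p from 0.00124 to 0.0303. Ccl5 rose by 2.05 ± 0.19, C3 by 2.00 ± 0.19, Acod1 by 1.85 ± 0.23, Cd274 by 1.56 ± 0.25 and Cfb by 1.52 ± 0.24. Tmem119 (-3.88 ± 0.51), Itga6 (-3.42 ± 0.42), a laminin receptor subunit, Plau (-2.64 ± 0.31), urokinase, Ccl7 (-2.52 ± 0.23) and Pmepa1 (-2.18 ± 0.25) fell most, and Trem2 was the 1 lipid-associated gene of 22 to fall (-1.83 ± 0.24, edgeR adjusted p = 0.0199). Cxcl9 (2.46 ± 0.71, edgeR adjusted p = 0.213), Arg1 (-1.50 ± 0.48, 0.26) and Spp1 (-5.35 ± 1.05, 0.0716) did not pass with all libraries, and did in 3, 4 and 9 of 13 alternative settings. Without IFNa 18, Gbp7 and Cfb were not called (edgeR adjusted p = 0.056 and 0.055), nor was Gbp7 with library size alone (0.053), Cfb with C1q genes at 1 UMI or more (0.051) or Nos2 with DESeq2. For Cxcl9 the fit without IFNa 23 gave 4.25 and that without IFNa 18 1.71.

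C1q macrophages and the rule monocytes of the same libraries were fitted together, with the library as a block, to ask whether IFNa moved the 2 cell types by the same amount. Of 12982 genes 2 had a more positive IFNa change in macrophages than in monocytes (0.0154%) and 45 a more negative one (0.347%), with a median of all genes of -0.03. Among 43 type I interferon genes 7 had a more negative difference by this test and none a more positive one (list median -0.56). Axl, a receptor for dying cells that interferon induces, read 219, 322, 359, 371 and 315 CPM in macrophages and 34.4, 38.2, 241, 282 and 258 in monocytes. The difference was -2.37 ± 0.17 (edgeR adjusted p = 0.0002), with macrophages already high in Control. Ifit2, an antiviral gene, read 60.3 and 86.9 in Control and 377 and 390 in IFNa macrophages, and 26.9 and 38.5 and then 517 and 460 in monocytes (-1.54 ± 0.16, edgeR adjusted p = 0.0057). H2-Q7 went from 106 and 119 to 449 and 581 in macrophages and from 33.5 and 40.2 to 368 and 500 in monocytes (-1.40 ± 0.15, edgeR adjusted p = 0.00668). Rsad2, the antiviral enzyme viperin (-1.44 ± 0.18), Axl, Ifit2 and H2-Q7 kept this call under every setting tried. Gbp8 (-1.62 ± 0.20) and H2-Q6 (-1.72 ± 0.23), a close copy of H2-Q7 whose reads may be shared with it, lost theirs only without Control 11 (edgeR adjusted p = 0.067 and 0.094).

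Summed over the 43 genes, the type I interferon list stood at 7501 and 6340 CPM in Control macrophages and 7859 and 7790 in Control monocytes. It stood at 20883 and 20396 in IFNa macrophages, at 28830 and 26684 in IFNa monocytes, and at 25416 against 35661 in the combination. In Control 29 and 22 of the 43 genes were higher in macrophages than in monocytes of the same library, and in the 3 libraries with IFNa 2, 3 and 1 were. The same count was not made over all tested genes, so these counts have no background to be read against. The median log2 ratio of macrophages over monocytes was 0.20, 0.02, -0.41, -0.31 and -0.46 in the 5 libraries. Transcripts of T and NK cells made up 0.00103% to 0.0184% of macrophage UMIs and 0.00689% to 0.0452% of monocyte UMIs, higher in IFNa monocytes than in Control ones, and their part in the differences was not tested.

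**Figure D5:**
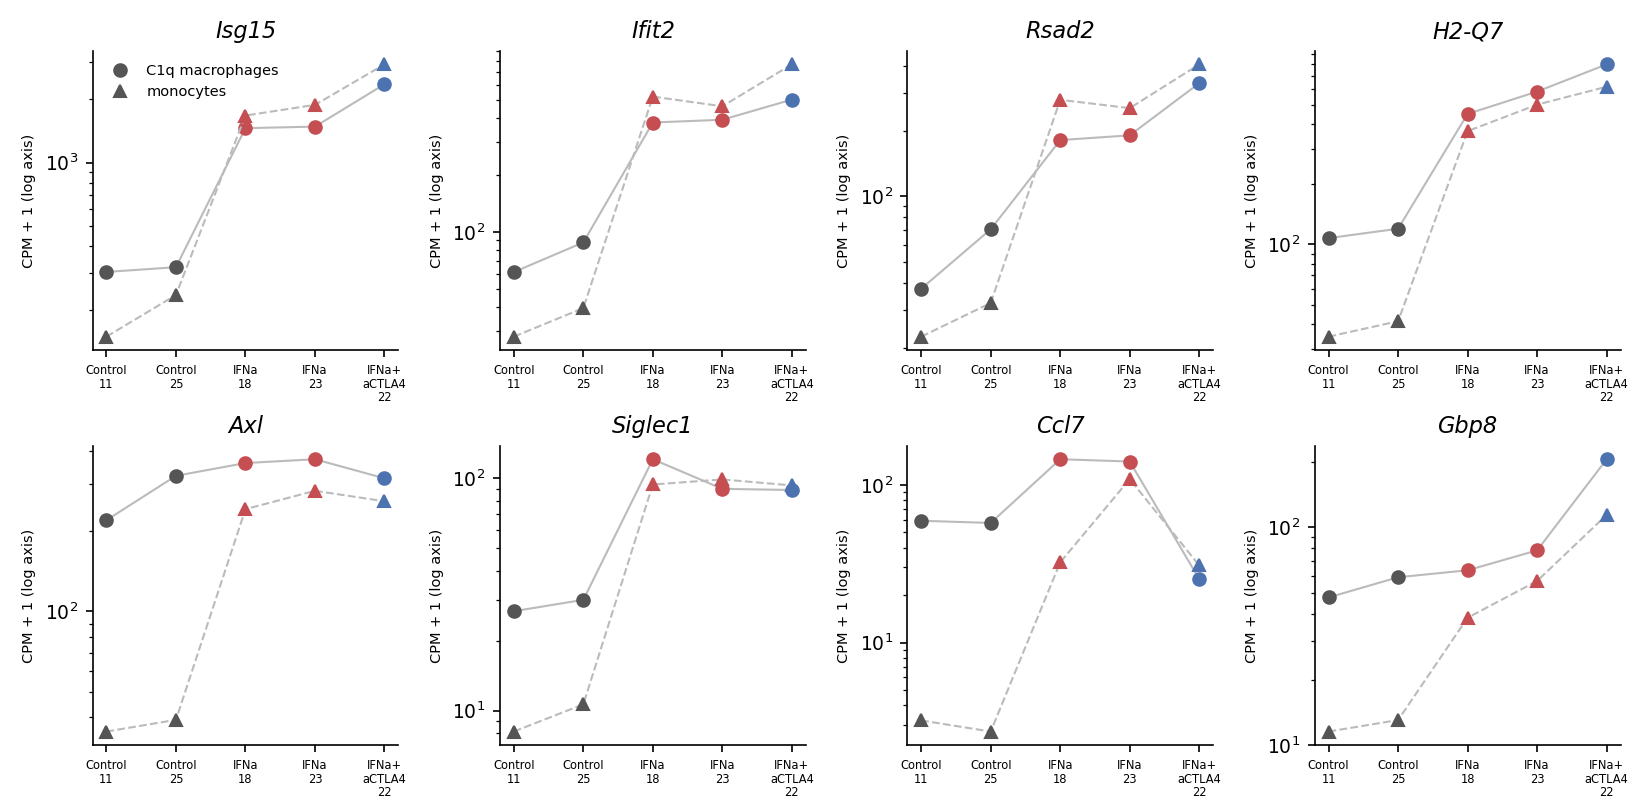
CPM plus 1 on a log axis of Isg15, Ifit2, Rsad2, H2-Q7, Axl, Siglec1, Ccl7 and Gbp8 in C1q macrophages and in monocytes of the 5 libraries. In Control livers macrophages lie above monocytes for Axl and H2-Q7, and with IFNa the 2 cell types come closer.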

How the data were processed

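UMI counts per gene and cell barcode were deposited by the authors as filtered matrices for the 5 gene expression libraries, with T cell receptor contig tables of the same livers, of which the barcodes with a contig were used. The submitters' processing notes name Cell Ranger 7.0.1 and mm10. Counts of member barcodes were summed per library and tested with edgeR 4.0.16 (filterByExpr, TMM factors, quasi-likelihood F test, 1 fit over the 5 libraries, Benjamini-Hochberg adjustment over all genes). The test of macrophages against monocytes added the library as a block. The standard error is the log2 fold change divided by the root of F. Fits were checked on simulated counts. For IFNa against Control 65% of simulated log2 changes of 1 and 100% of those of 2 were recovered, with 7 false calls. For macrophages against monocytes 25% and 97% were recovered, with 6 false calls. A gene that did not pass can thus still have changed. The members and the gene lists were chosen with earlier results of these data known. Named genes were the largest changes past the threshold with at least 50 CPM and separate groups (10 each way for IFNa, 5 for other comparisons), up to 4 members of each of 33 lists and a fixed panel of macrophage genes. Alternatives were DESeq2 1.42.0, other scaling, no filter, other C1q and mitochondrial limits, removal of doublets (top scrublet scores) or of other lineages, thinning, and leaving out each library. Genes were matched to RefSeq promoters by symbol. Mx1, Mx2, Cxcl11 and Clec7a were not analysed here. A few genes that met the naming rule, or that served as lineage markers, are not reported here.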

Additional observations from a re-analysis of the deposited data

Results flagged for a closer look

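The change with IFNa differed between C1q macrophages and monocytes of the same livers in 47 of 12982 genes by the interaction term of edgeR (adjusted p under 0.05). Among the named ones the type I interferon genes Isg15 (-1.05), Rtp4 (-0.80), Ifit2 (-1.54), Rsad2 (-1.44) and Siglec1 (-1.72) changed less in macrophages on the log2 scale, as did the GTPases Gbp8 (-1.62), Gbp9 (-1.13), Gbp4 (-1.30) and Tgtp2 (-1.19) and the class I genes H2-Q7 (-1.40) and H2-Q6 (-1.72). Gm4951 (-3.87), the chemokines Ccl22 (-6.01), Ccl7 (-3.59) and Ccl2 (-1.16), Axl (-2.37), Spon1 (-1.82) and Vegfa (-1.26) differed in the same direction. Hmgn2, a chromatin protein, differed the other way (1.07): it read 104.8 and 109 CPM in Control and 91.9 and 113 in IFNa macrophages, and 125 and 136 and then 51.4 and 65.9 in monocytes. Ccl22 read 4.74 and 98.5 CPM in the 2 Control macrophage sums, so 1 library carried it. Hmgn2 did not pass without barcodes of other lineages (edgeR adjusted p = 0.084), without Control 25 (0.066) or without IFNa 23 (0.056).

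Klrb1c (-2.53), Klrd1 (-2.48) and Cd8b1 (-6.52) are genes of NK and T cells, and their levels were at most 15.7 CPM in macrophages and 30.5 in monocytes of Control and IFNa livers. Without barcodes of other lineages Klrb1c was -2.74 (edgeR adjusted p = 0.22) and Cd8b1 -5.21 (0.10), with calls lost at folds near those with all barcodes, and Klrd1 was -0.70 (0.71). Cd8b1 changed sign without doublets.

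Of the 22 named genes 4, Axl, Ifit2, H2-Q7 and Rsad2, kept call and direction in every setting. Without Control 11 the calls of 16 of the 22 were lost, those of Isg15 (-0.68, edgeR adjusted p = 0.083), Siglec1 (-1.45, 0.23), Ccl7 (-3.78, 0.28), Rtp4, Gbp4, Gbp8, Gbp9, Tgtp2, Gm4951, H2-Q6, Ccl2, Spon1, Vegfa, Klrb1c, Klrd1 and Cd8b1 (edgeR adjusted p over all 16 from 0.057 to 0.96). Of the 47 genes called with all libraries 13 were then called. Without Control 25, IFNa 18, IFNa 23 or the combination 9, 2, 10 and 10 of the 22 were lost, among them Isg15 (-0.94, 0.13), Vegfa (-0.91, 0.23) and Ccl2 (-0.81, 0.32) without IFNa 23. Of the 18 that DESeq2 gave an adjusted p, 2 were lost, Tgtp2 (0.081) and Gm4951 (0.21). With library size alone 7 were lost, with C1q genes at 1 UMI or more 4 and at 3 or more 3.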

How the results depend on the processing

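Of the named genes called, 28 of 57 for IFNa against Control, 31 of 42 for the combination against Control, 17 of 20 for the combination against IFNa and 4 of 22 for macrophages against monocytes kept call and direction in every setting that tested them, and without the settings that leave out a library 48, 35, 17 and 10 did. A limit of 10% mitochondrial UMIs removed no C1q macrophage and no monocyte, so its counts of changed genes equal those at 15% by construction. It is counted among the settings, though it could change no call. For the combination against IFNa, 58 genes became 102 with DESeq2, 109 with C1q genes at 1 UMI, 139 without doublets and 165 without other lineages. For macrophages against monocytes, 47 became 28 with library size alone, 88 without doublets and 106 without other lineages. With no low-count filter the 4 comparisons (IFNa and the combination against Control, the combination against IFNa, and macrophages against monocytes) gave 808, 1077, 495 and 416. Leaving out 1 library gave 208 (IFNa 23) to 523 (Control 25) for IFNa against Control, where 286 were called, 603 (Control 11) to 752 (Control 25) for the combination against Control (493), 130 (IFNa 18) to 295 (Control 25) for the combination against IFNa and 19 (combination) to 211 (IFNa 18) for the cell types. The cause was not tested.

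Leaving out 1 library moved the IFNa difference of the macrophage share from -2.95 to 1.23 percentage points (-0.859 with all libraries, 1.23 without IFNa 18), of the Arg1 or Spp1 fraction from -9.04 to 4.32 (4.32 without Control 25), of Cxcl9 from 3.63 to 21.3 and of Vsig4 or Clec4f from -0.814 (without IFNa 18) to 4.18. Log2 changes turned for Cd8b1 between cell types (1.67 without doublets, and -10.85 to 1.06 with 1 library left out), and in IFNa for H2-Ab1 (-0.48 to 0.0022 with 1 left out), Spp1 (-1.48 without Control 11 to 0.85 without Control 25, both passing the test) and Trem2 (0.026 with library size alone, 0.0033 unfiltered, 0.020 with C1q genes at 3 UMIs, and -0.15 to 0.069 with 1 left out).

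Precision is limited by 2, 2 and 1 libraries, by 51 cells in Control 25 and 84 in the combination, and by genes of few UMIs, such as Spp1 with 18 UMIs in the combination. No paired analysis was possible because the groups share no replicate numbers.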
